A study of Mus musculus with 4 samples.

Results

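The genes described here are those of the mitochondrial ribosomal proteins, chosen as the probe sets whose gene symbol begins with Mrpl or Mrps followed by a number. The rule found 127 probe sets for 74 genes, among 22626 probe sets and 12393 named genes on the array. RefSeq lists 78 protein-coding mouse genes with such symbols, and the other 4 (Mrpl30, Mrpl53, Mrps10 and Mrps27) had no probe set assigned to them alone. Of the 74 genes, 49 encode proteins of the large subunit and 24 proteins of the small subunit. The remaining gene, Mrps36, has more recently been assigned to the ketoglutarate dehydrogenase complex and was kept because its symbol fits. Mrps30 and Mrps18a were counted with the large subunit, where structures of the ribosome place both proteins.

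Mitochondria have ribosomes of their own, which translate the few messenger RNAs of mitochondrial DNA into core subunits of the respiratory chain and ATP synthase. Their ribosomal RNAs are encoded in mitochondrial DNA, whereas all of their proteins are encoded in the nucleus, made in the cytosol and imported. Part of the proteins descend from bacterial ribosomal proteins and the others are found in mitochondria only. Fibroblasts, like other growing cells, express these genes at moderate to high levels.

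RNA came from mouse embryonic fibroblasts (MEFs), mesenchymal cells grown from E10.0 embryos of the strain C57BL/6J. One group was Med1+/+ p53-/- and the other Med1-/- p53-/-, with 2 arrays each, so all cells including the controls lacked p53. The Med1 protein belongs to Mediator, through which transcription factors reach RNA polymerase II. Per the labels, both genotypes descended from a mating of a Med1+/- p53-/- male with a Med1+/- p53+/- female. Whether the arrays within a genotype represent separate embryos or cultures is not labelled, and p-values therefore cover just the spread among these samples, possibly a technical one. Loss of Med1 and any other difference in origin between the genotypes cannot be told apart.

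The level of a gene is given as log2 of its quantile normalized intensity plus 1.7, on its brightest probe set, and levels of different genes are not compared with each other. A change is the mean level in Med1-/- minus that in Med1+/+ cells, and it was called at an adjusted p under 0.05 (limma, Benjamini-Hochberg adjustment over all 8923 features tested). The deposited intensities were not on a common scale, with array medians of 76.25 and 106.65 in Med1+/+ and of 36.1 and 51.4 in Med1-/- cells. A change is therefore to be read against the rest of the array. Fewer cells of a type and less RNA per cell cannot be told apart in such bulk samples. Med1 itself had levels of 9.30 and 9.21 with the gene intact and of 5.61 and 5.77 without it, in the direction of the labels. Of 9 fibroblast markers tested, 5 were higher and 1 lower in Med1-/- cells, and all but 1 gene of the endothelial and of the blood list on the array lay below the expression filter, Pecam1 and Ptprc among them. The exceptions were Kdr, an endothelial receptor, which did not pass, and Cd34, which is also found on some fibroblasts and rose from 9.67 and 9.71 to 10.25 and 10.11. Among epithelial markers 4 of 5 tested fell and 1 rose, while Epcam lay below the filter. Cdh1 fell from 9.56 and 9.67 to 5.45 and 4.78, and Krt18 from 11.28 and 11.31 to 7.13 and 6.57. The marker that rose was Krt19, from 9.54 and 9.51 to 10.996 and 11.27. The summed epithelial intensity was 4707 to 4851 in Med1+/+ and 2320 to 2701 in Med1-/- cells. The rise of Krt19 is part of this sum, which therefore understates the fall of the other 4 tested markers. The summed intensity of the fibroblast list was 31254 to 33265 in Med1+/+ and 44863 to 47202 in Med1-/- cells. The muscle markers Des and Actc1 and the neural markers Tubb3 and Nes rose. The other 4 muscle markers, Myod1 and Myog among them, and the other 3 neural markers, Sox2 and Sox10 among them, lay below the filter. The part of these cell markers in the values below was not tested.

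The mitochondrial ribosomal protein genes did not move as a unit. All 74 were above the expression filter, and in Med1-/- cells 33 were higher, 21 lower and 20 not called. This made 73.0% called, against 75.3% of all features tested, so the share of changed genes was near the background. The members were called higher in 44.6% and lower in 28.4% of cases, against 39.1% and 36.2% of all features. At least 2-fold differences were called for 16 rises and 6 falls, together 22 of the 74. Of all features 21.2% rose and 19.2% fell that far, together 40.4%. The members' share of such rises was thus near that of all features, and their share of such falls was lower. The median change was 0.22, against 0.09 over all features. This small gap of 0.128 was not stable: it was 0.015 with the mean of all probe sets of a gene (medians of 0.12 and 0.10), and 0.069 without Med1+/+ replicate 1. The changes of single members ran from -1.50 for Mrps33 to 2.13 for Mrpl37. The middle range of the changes, from the first to the last quartile, spanned -0.55 to 0.95. In 67 members (90.5%, against 88.2% of all features) both values of one genotype lay beyond both values of the other. The typical difference between replicates was much smaller than these changes, with a median absolute difference of 0.11 in Med1+/+ and 0.12 in Med1-/- cells.

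**Figure D1:**
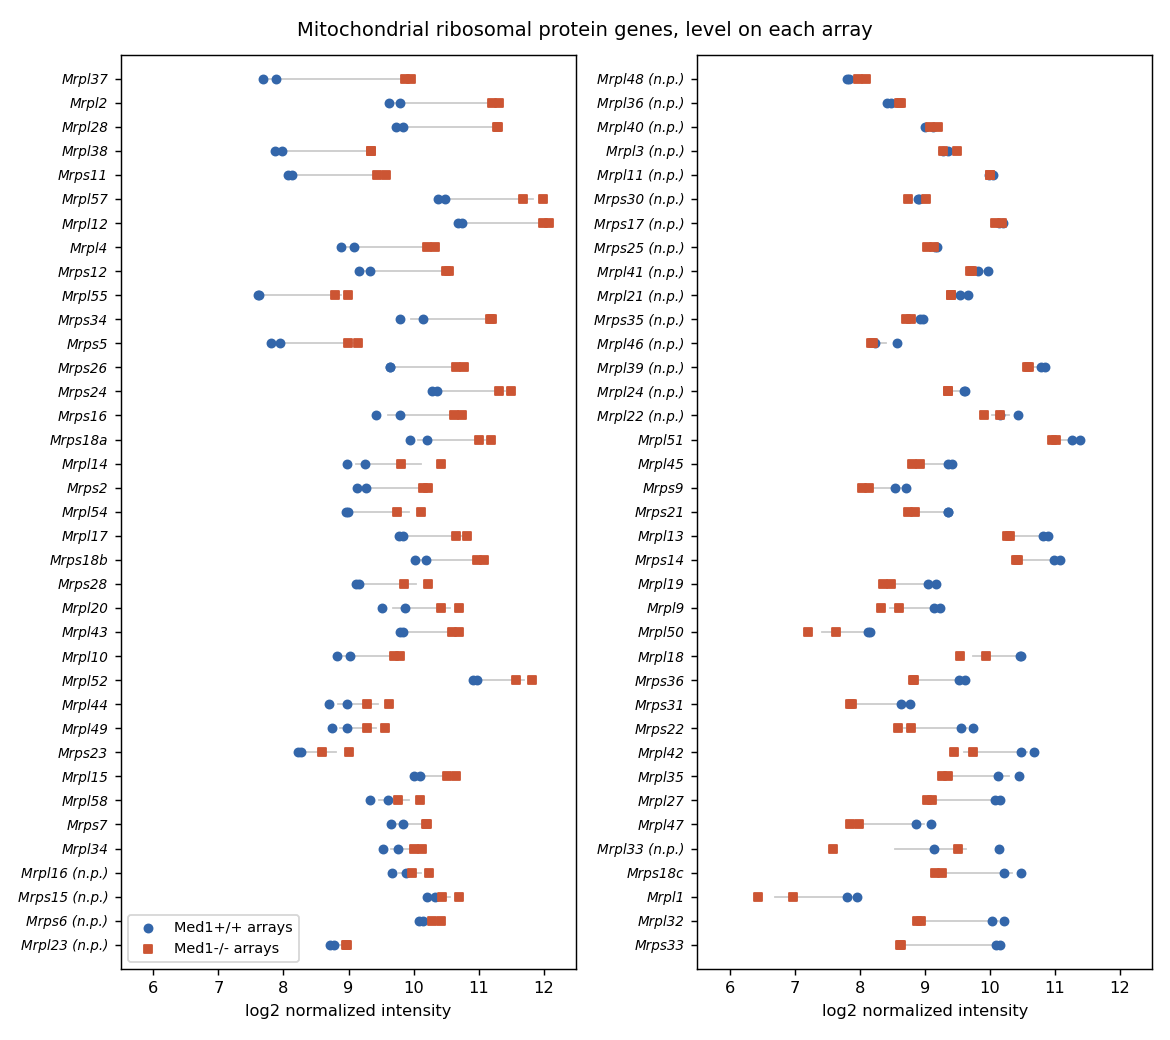
Level of each of the 74 genes on each array, as log2 normalized intensity on the horizontal axis, ordered from the largest rise (top left) to the largest fall (bottom right). Circles are the 2 Med1+/+ arrays, squares the 2 Med1-/- arrays, a grey line joins the means, and n.p. marks the 20 genes that did not pass; Mrpl33 has widely spread values within both genotypes.

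Promoters of these genes are known for binding sites of the nuclear respiratory factors, and 4 stretches are shown because the same motif lay in front of members that moved in opposite directions. Each runs 5′ to 3′ on the gene's strand, is the 180 bases before the annotated start in RefSeq (build GRCm38.p6), and has matches to a searched motif in capitals. For Mrpl12 (chr11:120484457-120484636, plus strand) and Mrpl32 (chr13:14613038-14613217, minus strand) the motif is that of NRF1, and for Mrps18a (chr17:46110824-46111003, plus strand) and Mrps18c (chr5:100798579-100798758, plus strand) that of ETS factors such as GABP.
Mrpl12: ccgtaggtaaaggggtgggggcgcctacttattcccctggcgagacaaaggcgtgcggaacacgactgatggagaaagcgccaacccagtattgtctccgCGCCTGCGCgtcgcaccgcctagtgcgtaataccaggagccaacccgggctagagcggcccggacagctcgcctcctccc
Mrpl32: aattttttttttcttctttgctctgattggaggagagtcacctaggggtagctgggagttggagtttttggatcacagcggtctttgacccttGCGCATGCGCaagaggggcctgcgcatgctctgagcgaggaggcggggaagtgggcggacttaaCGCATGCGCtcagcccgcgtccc
Mrps18a: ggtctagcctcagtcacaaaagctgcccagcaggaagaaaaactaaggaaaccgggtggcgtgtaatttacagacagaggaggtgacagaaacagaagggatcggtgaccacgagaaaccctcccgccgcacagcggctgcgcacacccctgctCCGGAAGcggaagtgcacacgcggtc
Mrps18c: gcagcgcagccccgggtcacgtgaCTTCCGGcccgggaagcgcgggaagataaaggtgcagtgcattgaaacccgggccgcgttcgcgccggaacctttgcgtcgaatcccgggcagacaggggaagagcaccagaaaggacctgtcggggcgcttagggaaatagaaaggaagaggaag

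Mrpl12 and Mrps18a were higher and Mrpl32 and Mrps18c lower in Med1-/- cells, as given with their values below. The motifs searched, on both strands and over 250 bases before to 50 after the start, were GCGCANGCG for NRF1, CCGGAAG for ETS factors and AAGATGGCG for YY1, and none of them contains another. Promoter windows were held for 65 of the 74 genes. Of these 23.1% held the NRF1 motif, 36.9% the ETS motif and 10.8% the YY1 motif. The shares were 9.6%, 12.9% and 2.1% of all 17492 protein-coding genes with a window, and 17.1%, 22.2% and 4.0% of the 6406 tested genes with one. The 15 members with the NRF1 motif comprised 8 that were higher and 5 that were lower, with a median change of 0.61 against 0.12 in members without it. That difference depended on the letters chosen: with a further C required at the 3′ end, a form also tried on these data, 12 members held it and the medians were 0.19 and 0.16. The 24 members with the ETS motif comprised 12 that were higher and 7 that were lower, with a median of 0.31 against 0.07 without it. The YY1 motif was held by 7 members, of which 4 were higher and 2 lower, with a median of 1.02 against 0.07 without it. With a further G required 4 members held it, 3 of them higher and 1 lower, and the median was 1.22. Of all 1096 tested genes whose window held the NRF1 motif in its shorter form, 438 were higher and 398 lower. For the ETS motif 577 were higher and 511 lower of 1424, and for the shorter YY1 motif 110 and 86 of 255. A motif match is a description of the sequence, and members with each of these motifs moved in both directions.

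In the large subunit 21 of 49 genes were higher and 13 lower. Mrpl37, which encodes a mitochondria-specific protein, had the largest rise of all members. It was measured at 7.68 and 7.88 in Med1+/+ and reached 9.87 and 9.96 in Med1-/- cells. This is a rise of 2.13 (SE 0.12, 2 arrays against 2), or 4.39-fold, with an adjusted p of 3.47e-05 in limma. Mrpl37 was measured with a probe set of the _s_at kind, which can match transcripts of other genes. Mrpl2 encodes the counterpart of bacterial L2, which lies beside the peptidyl transferase centre. It was at 9.80 and 9.63 in Med1+/+ and at 11.31 and 11.21 in Med1-/- cells, a rise of 1.55 (SE 0.11). Mrpl28, counterpart of bacterial L28, went from 9.73 and 9.84 to 11.29 and 11.30, and all 3 of its probe sets were higher (changes of 1.11 to 1.51). On these brightest probe sets the groups of each gene were far apart for the distance between replicates, whereas the dimmest Mrpl28 probe set read 8.86 and 7.72 on its Med1+/+ arrays.

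Other large subunit genes among the 12 largest rises were Mrpl38 (change 1.42) and Mrpl57 (1.41), both mitochondria-specific, Mrpl4 (1.29), whose bacterial counterpart lines the exit tunnel, and Mrpl55 (1.27), counterpart of L31. Mrpl38 was measured with an _s_at probe set too, and its other probe set changed by 0.45 and did not pass, so that the mean over both was 0.93. The dimmer probe set of Mrpl57 changed by 0.60 and did not pass either. Mrpl57 was at 10.38 and 10.48 in Med1+/+ and at 11.98 and 11.69 in Med1-/- cells, so its Med1-/- arrays differed more from each other than those of Mrpl38 (9.34 on both).

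The largest fall in the large subunit was that of Mrpl32, whose protein is known to be cut by the m-AAA protease before it joins the ribosome. It was at 10.03 and 10.21 in Med1+/+ and at 8.88 and 8.94 in Med1-/- cells, a change of -1.21 (SE 0.11; adjusted p = 0.000118, limma). Mrpl1, whose bacterial counterpart forms the mobile stalk at the exit of transfer RNA, was at 7.80 and 7.96 against 6.43 and 6.97, a change of -1.18 (SE 0.20). Mrpl47 (-1.06), counterpart of L29 at the exit tunnel, Mrpl27 (-1.05), counterpart of L27 at the peptidyl transferase centre, Mrpl35 (-0.98), Mrpl42 (-0.97) and Mrpl18 (-0.73) also fell. Proteins that neighbour the peptidyl transferase centre thus included a gene that rose, Mrpl2, and one that fell, Mrpl27.

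Mrpl33 stood apart through its replicates. It lay at 9.14 and 10.14 in Med1+/+ but at 7.58 and 9.51 in Med1-/- cells, so the groups overlapped and the change of -1.09 (SE 0.60) did not pass (adjusted p = 0.137, limma). Without Med1-/- replicate 2 the change was -2.02. That fit leaves a lone Med1-/- array, so the spread between the Med1-/- arrays drops out of it. It cannot tell which of the arrays was the deviant one. The other Mrpl33 probe set was below the expression filter.

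The stalk that recruits translation factors is built from Mrpl10, Mrpl12 and Mrpl11. Mrpl12, which in bacteria is the L7/L12 protein and also binds the mitochondrial RNA polymerase, rose from 10.68 and 10.75 to 11.99 and 12.09, a change of 1.32 (SE 0.09; adjusted p = 5.12e-05, limma). Mrpl10, the base of the stalk, rose by less, from 8.83 and 9.02 to 9.80 and 9.70 (change 0.83, SE 0.12). The 4 levels of Mrpl11 ran from 9.99 to 10.04 with overlapping groups, and its change of -0.01 (SE 0.10) did not pass. The difference of Mrpl12 minus Mrpl11 within an array, which no scaling factor of the array can move, was 0.60 and 0.73 in the deposited values of Med1+/+ and 2.15 and 2.23 in those of Med1-/- cells.

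In the small subunit 12 of 24 genes were higher and 7 lower, with a median change of 0.37 against 0.16 in the large subunit. Mrps11, counterpart of bacterial S11, was at 8.07 and 8.12 in Med1+/+ and at 9.57 and 9.43 in Med1-/- cells, a change of 1.41 (SE 0.11; adjusted p = 7.35e-05, limma). Mrps12, counterpart of the decoding centre protein S12, went from 9.33 and 9.17 to 10.55 and 10.50, a change of 1.28 (SE 0.11). Its only probe set is of the _s_at kind, as that of Mrpl37 is. Mrps34 (1.22), which is specific to mitochondria, and Mrps5 (1.19), counterpart of S5 at the entry of messenger RNA, were the other small subunit genes among the 12 largest rises.

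Mrps33, a mitochondria-specific small subunit gene, had the largest fall of all members. It was at 10.15 and 10.10 in Med1+/+ and at 8.62 and 8.63 in Med1-/- cells, a change of -1.50 (SE 0.10; adjusted p = 4.74e-05, limma), or 2.82-fold. Mrps22 (-0.96) and Mrps31 (-0.84), both mitochondria-specific, fell as well. Mrps36, whose assignment to the ribosome is not settled, fell by 0.75 (SE 0.11).

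Of genes with bacterial counterparts 72.7% of 44 were called, and of genes specific to mitochondria 72.4% of 29. Mrps18a and Mrps18b were put in the second class, because their products sit at places that bacterial ribosomes do not fill, although they descend from bacterial S18. Split by subunit, the medians were 0.07 for large subunit genes with a bacterial counterpart (11 higher and 9 lower of 29) and 0.34 for mitochondria-specific ones (10 higher and 4 lower of 20). In the small subunit the order was the other way round, with medians of 0.45 (8 higher and 4 lower of 15) and -0.08 (4 higher and 3 lower of 9). Relative to all features the first of these medians lay just below 0 after quantile normalization and loess (-0.02 and -0.03) and just above it under the other 4 scalings. With Mrps18a and Mrps18b counted as bacterial counterparts, an assignment added after the data were seen, the 4 medians were 0.11, 0.21, 0.67 and -0.14 in the same order. No test of a difference between these classes was made, and each held both rises and falls.

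**Figure D2:**
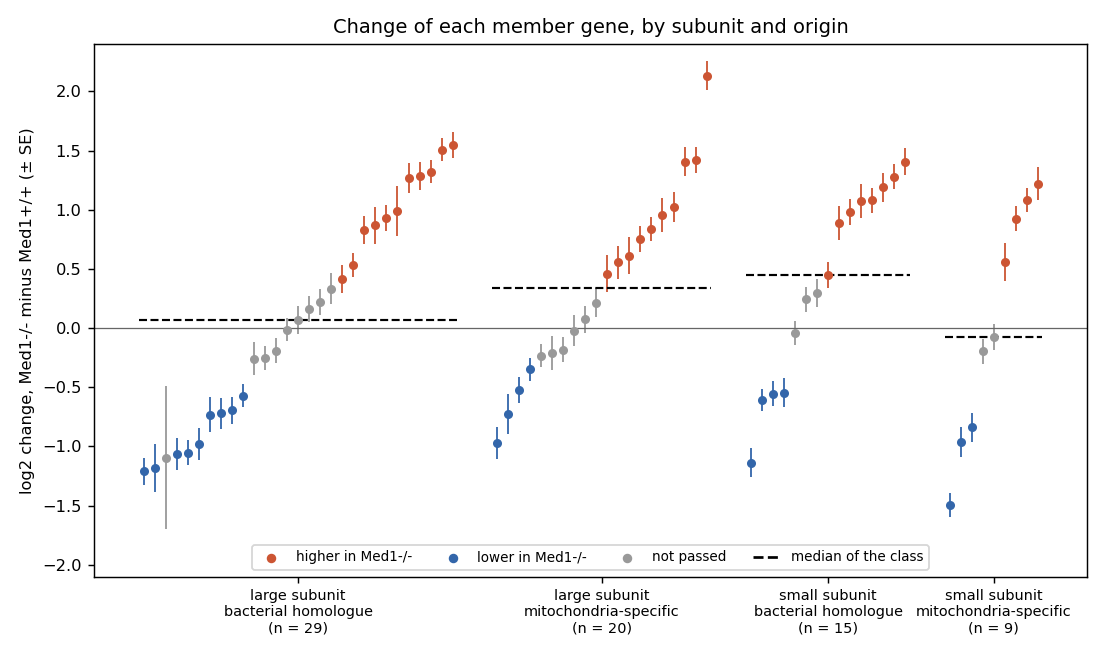
Change of each member (vertical axis, log2, Med1-/- minus Med1+/+, bars are the standard error from limma) by subunit and by whether the protein was classed as having a bacterial counterpart (Mrps18a and Mrps18b as mitochondria-specific); Mrps36 is left out. Dashed lines are the class medians of 0.07, 0.34, 0.45 and -0.08, and every class spans calls in both directions.

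The Mrps18 genes are paralogs that share a bacterial ancestor, S18, and their products occupy different places in the ribosome. Mrps18a was at 9.94 and 10.20 in Med1+/+ and at 11.18 and 11.01 in Med1-/- cells, a rise of 1.02 (SE 0.13; adjusted p = 0.00036, limma). Mrps18b was at 10.18 and 10.02 and then at 11.08 and 10.97, a rise of 0.92 (SE 0.11). Mrps18c was at 10.47 and 10.22 in Med1+/+ but at 9.15 and 9.26 in Med1-/- cells, a change of -1.14 (SE 0.12; adjusted p = 0.000209, limma). Within an array, Mrps18a minus Mrps18c in the deposited values was -0.49 and -0.02 in Med1+/+ against 2.14 and 1.88 in Med1-/- cells. Mrps18b minus Mrps18c was -0.27 and -0.20 and then 2.03 and 1.84, whereas Mrps18a minus Mrps18b changed by 0.09 only. With 2 arrays against 2, an exact two-sided permutation test of such a difference cannot go below p = 0.333.

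**Figure D3:**
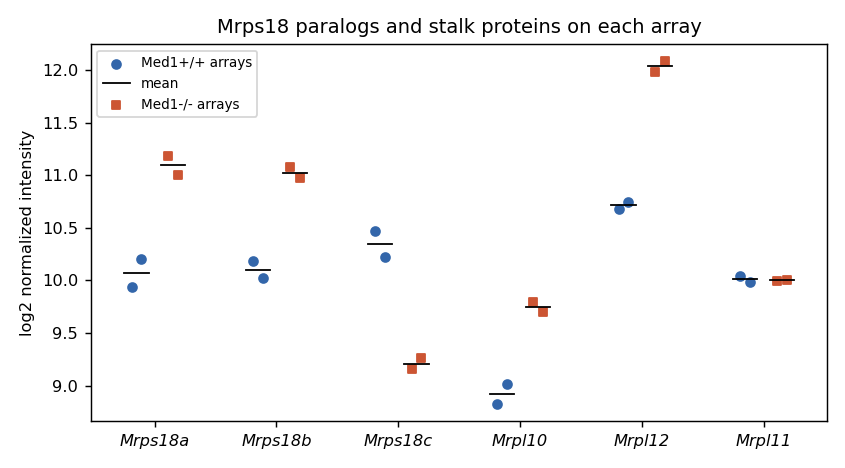
Level on each array (vertical axis, log2 normalized intensity) of the Mrps18 paralogs and of the stalk genes Mrpl10, Mrpl12 and Mrpl11, with circles for Med1+/+, squares for Med1-/- and a line at each mean. Mrps18a, Mrps18b, Mrpl10 and Mrpl12 are higher in Med1-/- cells, Mrps18c is lower, and the values of Mrpl11 overlap; heights are not comparable between genes.

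The 20 members that did not pass were Mrpl33 and 19 genes with changes from -0.26 to 0.33. Above 0 were Mrpl16 (0.33), Mrps15, Mrps6, Mrpl23, Mrpl48, Mrpl36, Mrpl40 and Mrpl3 (0.07). Below 0 were Mrpl11 (-0.01), Mrps30, Mrps17, Mrps25, Mrpl41, Mrpl21, Mrps35, Mrpl46, Mrpl39, Mrpl24 and Mrpl22 (-0.26). Mrpl16 had the adjusted p closest to the threshold (0.0526, limma), and Mrpl24 (0.0539) the next. In 13 of the 20 (65.0%) the groups still did not overlap, as in 52.2% of the 2201 features not called.

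Several probe sets above the filter existed for 28 members, and in 5 of these the probe sets differed in sign. For Mrpl15 the brightest probe set changed by 0.53 and another by -0.99, both called. For Mrpl49, the brightest changed by 0.55 and the other by -1.03, again both called, so the direction of Mrpl15 and Mrpl49 depends on the probe set. For Mrps9 the brightest probe set fell by 0.55 and another changed by 0.20, which did not pass, and the probe sets of Mrpl41 and Mrpl48 did not pass in either direction. Tested one by one, 113 of the 127 probe sets were above the filter, and 45 were higher, 27 lower and 41 not called. The shares over all 13576 probe sets tested this way were not worked out, so these counts have no background beside them.

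How the arrays were scaled set the balance of rises and falls. With array medians set equal 43 members were higher and 18 lower, against 45.3% and 30.4% of all features. With 75th percentiles set equal 36 and 20 were, against 39.4% and 35.1% of all features. In the values as deposited 1 was higher (Mrpl37) and 23 lower, against 2.97% and 43.1% of all features. After scaling on the hybridisation controls 15 were higher and 44 lower, against 13.2% and 59.9% of all features. The counts of members thus moved with those of all features. The median of all features moved along, from 0.30 with equal medians to -0.77 on the hybridisation controls. Relative to it the median of the members lay between 0.10 and 0.13 under all 6 scalings. The order of the members hardly changed (Spearman correlation with the quantile values, across the 74 genes, of 0.995 for the 4 linear scalings and 0.999 for loess). The 4 linear scalings differ by a factor per array, which moves the changes of all genes almost equally. Their agreement with each other on the relative median and the order was thus largely fixed in advance, and they are not 4 separate checks. The 12 largest rises stayed above 0 and the 12 largest falls below 0 under all 6 scalings, although as deposited 11 of these rises were not called. On the hybridisation controls Mrpl58, the ribosome rescue factor (-0.35), Mrps7 (-0.32) and Mrpl34 (-0.37) were called lower, although they were called higher after quantile normalization.

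**Figure D4:**
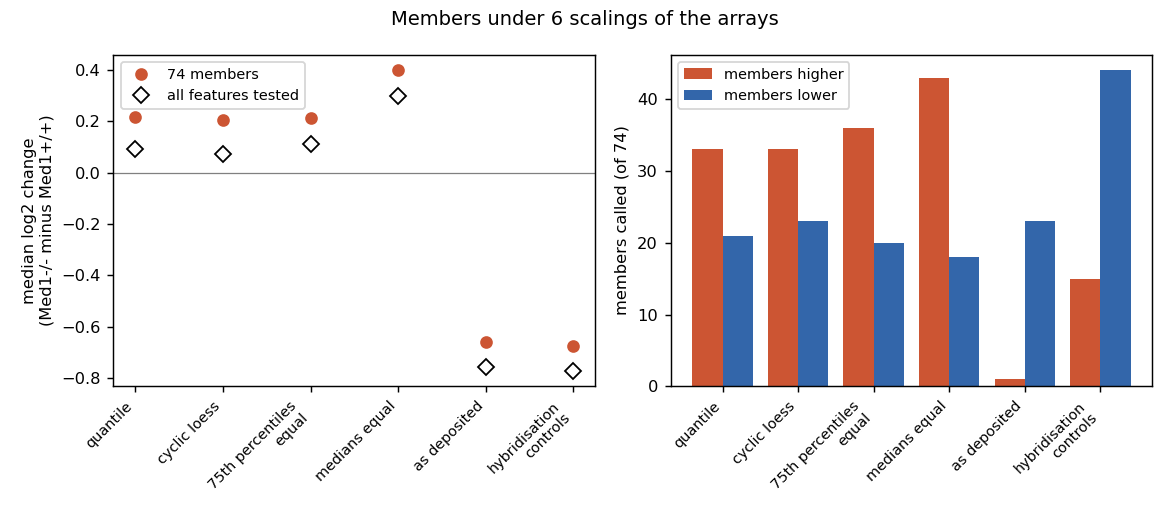
Left, median log2 change of the 74 members and of all features tested under 6 scalings of the arrays; right, number of members called higher and lower under each. The members' median follows that of all features and lies slightly above it (by 0.10 to 0.13, all on the brightest probe set of a gene). Under the scalings other than quantile and loess this gap is nearly the same by construction. The number of members called higher ranges from 1 to 43, and the share of all features called higher from 2.97% to 45.3%.

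A share of the summed signal is not moved by a single scaling factor per array, although quantile normalization or loess would move it. All 127 probe sets together made up 0.766% and 0.778% of the summed intensity with Med1 present, against 0.879% and 0.935% in Med1-/- cells. The groups did not overlap, and bright members weigh most in such a sum. Of single features above the filter 88.2% did not overlap after quantile normalization, which is an unlike measure. No share of another gene set was computed beside it. The median rank of the 74 genes was at percentile 86.9 and 86.1 of all probe sets in Med1+/+ and at percentile 87.8 and 87.5 in Med1-/- cells. As a measure of RNA quality, the log2 excess of the 3′ over the 5′ control probe set of Gapdh was -0.08 and -0.15 in Med1+/+ against 0.15 and 0.01 in Med1-/- cells, and that of beta-actin 0.60 and 0.47 against 0.35 and 0.29. Its part in the changes was not tested.

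Gene length and base composition differed between the members by call. The median genomic length was 4126 bases in members that were higher, 8881 in those that were lower and 8281 in those not called. The 250 bases before the start held a median of 62.5% G or C in members that were higher and 56.8% in those that were lower. Members not called had the lowest median, 52.4%, so these medians did not run in the order lower, not called, higher. Across the 65 members with a window the Spearman correlation with the change was 0.34 for GC share and -0.34 for length, against 0.06 and -0.26 across 6406 tested genes, whose probes share the same 4 arrays. The part of base composition and length in the changes was not tested.

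The members lie on 17 chromosomes, 11 of them on chromosome 11, which also carries Med1. Mrpl45, whose product sits at the tunnel exit near the inner membrane, is the nearest, with 22 protein-coding genes between it and Med1. Its level was 9.42 and 9.36 in Med1+/+ against 8.93 and 8.80 in Med1-/- cells, a change of -0.52 (SE 0.11; adjusted p = 0.00427, limma). Mrpl10, the next with 28 genes between, rose by 0.83. Of the 11 members on the chromosome 8 were higher, 2 lower and 1 did not pass, while of the other 675 features tested there 43.6% were higher and 30.1% lower. With 11 genes this is a description, with no test. Among the 25 genes to each side of Med1, 23 were tested, of which 15 were higher and 4 lower. Of all features tested on chromosome 11, 44.0% were higher and 29.9% lower, and on the whole array 39.1% and 36.2%. This count was not tested either. A region around the targeted gene that differs between the genotypes cannot be told apart from loss of Med1 there.

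Proteins of the same ribosome whose symbols fall outside the rule moved both ways too. Gadd45gip1, a large subunit protein, rose by 1.55 (SE 0.11) and Dap3, the small subunit GTPase, by 0.97 (SE 0.10), whereas Ptcd3 fell by 1.64 (SE 0.12) and Chchd1 by 0.86 (SE 0.10), both of the small subunit. Of 18 tested genes for assembly of the mitochondrial ribosome and modification of its RNA, 10 were higher and 4 lower (median 0.62). Mterf3 (-2.04) and Fastkd2 (-1.88) fell most, and the GTPase genes Mtg2 (1.58) and Noa1 (1.42) rose most. Of 13 translation factors and regulators 5 were higher and 3 lower (median -0.13). The elongation factor gene Tufm (1.65, SE 0.35) and the membrane insertase gene Oxa1l (1.56) rose. Tufm was dim and spread in Med1+/+ cells, at 6.71 and 5.57. The initiation factor gene Mtif2 (-1.40) and Slirp (-1.38), which stabilises mitochondrial messenger RNA with Lrpprc, fell. Of 8 mitochondrial aminoacyl-tRNA synthetase genes 3 were higher and 3 lower, with Ears2 (1.93) and Tars2 (1.11) up and Iars2 (-1.43) and Rars2 (-1.15) down. Ears2 was near the filter in Med1+/+ cells, at 4.98 and 5.15 (percentile 3.0 of the features tested).

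Genes that transcribe or maintain mitochondrial DNA comprised 3 that were higher and 4 that were lower of 9 tested. Polrmt, the mitochondrial RNA polymerase, rose by 2.31 (SE 0.11; adjusted p = 3.15e-05, limma), while Tefm (-1.49), its elongation factor, Ssbp1 (-1.32), the single-stranded DNA binding protein, and Tfb2m (-1.25), its initiation factor, fell. Among 8 regulators of mitochondrial biogenesis 2 were higher, Pprc1 (1.38) and Esrra (1.26), and 2 lower, Gabpa (-1.55), the DNA-binding subunit of GABP, and Yy1 (-0.26). Nrf1, whose motif was searched above, changed by 0.17 (SE 0.13) and did not pass. Of 14 import and chaperone genes 3 were higher, Timm50 (2.01), Timm17b (1.65) and Tomm40 (1.37), and 6 lower, Tomm70a (-0.84) having the largest fall. On the hybridisation controls the medians of all 7 lists were negative, from -1.27 for mitochondrial DNA genes to -0.39 for assembly genes. Relative to all features, those of the assembly and synthetase lists lay above 0 and those of the translation factor and mitochondrial DNA lists below 0 under all 6 scalings, while the other 3 changed sign between scalings. Among the linear scalings these relative medians are nearly the same by construction.

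**Figure D5:**
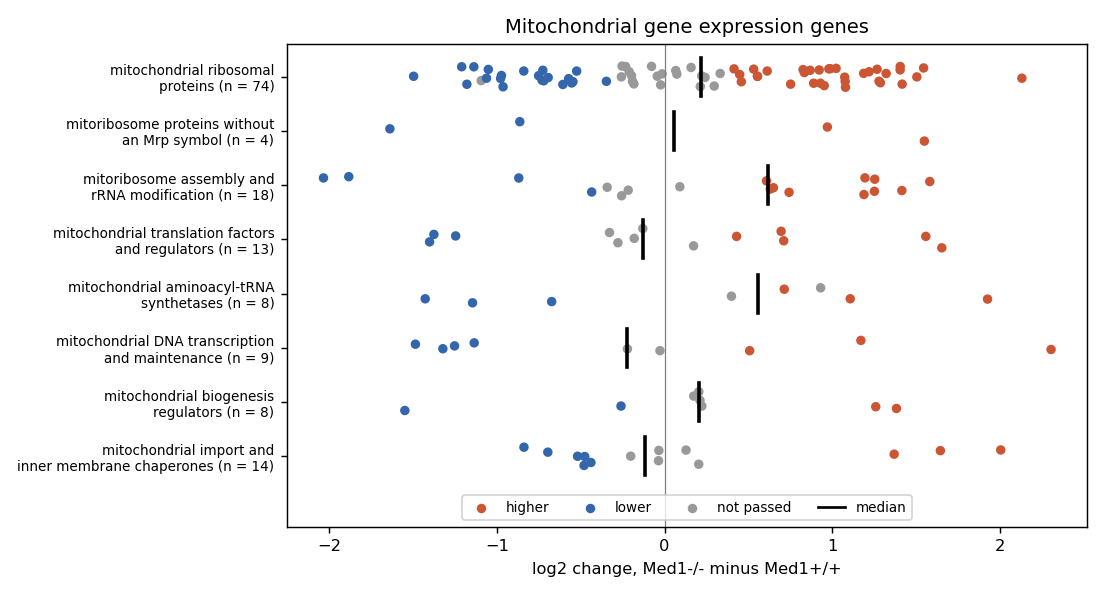
Change of each tested gene (horizontal axis, log2, Med1-/- minus Med1+/+) in the mitochondrial ribosomal proteins and in 7 lists of related mitochondrial genes; a black line marks each median and points are jittered vertically. Every list has genes called higher and genes called lower.

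Beside these, the ribosomal proteins of the cytosol had a narrower spread of changes, with quartiles of -0.31 and 0.18 over 45 genes against -0.55 and 0.95 for the mitochondrial ones and -0.80 and 0.88 for all features. Of the cytosolic genes 44.4% were called, against 75.3% of all features. These values are those after quantile normalization. The cytosolic genes had a median rank at percentile 98.7 of the features tested in Med1+/+ cells, against 74.5 for the mitochondrial ones. The part of signal height in the spread was not tested. Relative to all features, the median of the cytosolic list was -0.18 there and -0.16 after loess but 0.31 with array medians equal. For 75 subunit genes of the respiratory chain and ATP synthase, which work with the products of the mitochondrial ribosome, the quartiles were -0.44 and 0.49 and 69.3% were called, and the relative median likewise changed sign, from -0.12 to 0.19 with array medians equal.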

How the data were processed

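Affymetrix 3′ arrays measured total RNA of 4 samples, 2 Med1+/+ p53-/- and 2 Med1-/- p53-/-, grouped by their titles. The deposited values were linear intensities per probe set, per the table's own values, and probe summary, background correction and scaling are not given in the sources used here. Per the labels' protocols, in vitro transcription put biotin on the copied RNA. The 64 control probe sets were set aside, and the others were quantile normalized and logged as log2(value + 1.7), where 1.7 is the table's 10th percentile and makes changes of dim genes look smaller. A filter at the 40th percentile of the means removed 9050 probe sets, and the brightest probe set of each gene was used. Symbols were those of GEO's platform table, brought up to date by Entrez number in RefSeq (GRCm38.p6). A single symbol was found for 20380 probe sets, several for 691 and none for 1555, and 3 shared ones naming a member were left unnamed. Genotypes were compared with limma 3.58.1 under R 4.3.3 (two-sided, lmFit and then eBayes allowing a trend with intensity, 2 residual and 4.71 prior degrees of freedom). The procedure was run on simulated data with few changed genes. That run does not test it where 75.3% of features are called, as here. The precision is limited by the number of arrays. The members, lists and tests were chosen with earlier results of these data known. Named genes were, among members called, 12 with the greatest rise and 12 with the greatest fall, members not called or with probe sets of opposite sign, the Mrps18 and stalk genes, and up to 4 of the called genes with the largest change in each related list; Mrpl45, Mrpl58, Mrps7, Mrpl34, Mrpl44, Mrpl51, Mrps23, Nrf1, the markers and the head-to-head partners were added, after their values were seen, for the statements made on them. Alternatives varied filter, scaling, pseudocount, probe set choice, variance trend, threshold, a replicate block and the arrays left out. Figures were drawn with matplotlib 3.10.9.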

Additional observations from a re-analysis of the deposited data

How the results depend on the processing

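Of the 54 members called, all kept call and direction without the filter, with pseudocount 16, under cyclic loess and with the replicate block, 53 without the intensity trend and with 75th percentiles equal, 51 with medians equal, 50 with the mean of all probe sets, and 48 at adjusted p under 0.01. On the hybridisation controls 36 did, and in the values as deposited 22. The median of the members was 0.40 with medians equal, 0.12 (0.015 relative to all features) with the mean of probe sets, -0.66 as deposited with 1 higher, and -0.68 with 15 higher and 44 lower on the hybridisation controls. Of all features 2.97% were higher as deposited, and 13.2% were higher and 59.9% lower on the hybridisation controls. On those controls Mrpl16 (-0.44), Mrps15 (-0.42), Mrps6 (-0.51), Mrpl23 (-0.64), Mrpl48 (-0.73), Mrpl36 (-0.71), Mrpl40 (-0.77) and Mrpl3 (-0.76) were called lower, and with medians equal Mrpl11 (0.29) and Mrps17 (0.28) higher. Mrpl15 was at -0.18 as deposited, -0.20 on the controls and -0.012 with the mean of probe sets, and Mrpl49 at -0.27, -0.29 and -0.24. The cause of these differences was not tested, beyond the opposed probe sets of Mrpl15 and Mrpl49. Leaving out 1 array, with the lone sample assumed to vary like the other group, gave a median of 0.16 to 0.21 and 0.069 to 0.137 relative to all features. Without Med1+/+ replicate 1 the calls of Mrpl49 and Mrpl51 were lost, without Med1+/+ replicate 2 those of Mrpl44, Mrps23, Mrpl58, Mrps7 and Mrpl34, and without Med1-/- replicate 1 those of Mrps23, Mrpl58, Mrpl34 and Mrpl51. Replicate numbers are shared between the genotypes but nothing says that they pair the samples (correlation of replicate differences across features 0.27). With them as a replicate block 37 members were higher and 25 lower, against 42.9% and 39.2% of all features. With arrays, depth is not counted, and the number of arrays limits the precision.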

Other observations

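Many mitochondrial ribosomal protein genes share their promoter region with a gene that runs the other way. Starts of 2 protein-coding genes on opposite strands, pointing apart and within 1000 bases of each other in RefSeq, were found for 21 pairs with at least 1 member and for 748 pairs in all. Both genes were tested in 13 member pairs and in 312 pairs in all. In 8 of the 13 both genes were called, and in 7 of these (87.5%) they were called in the same direction. Over all genes, which include these, the share was 77.4% of 168 pairs with both called. One of the 7 was Mrpl49 with Fau, and by the other Mrpl49 probe set, which was called lower, the count was 6 of 8, a share below that of all pairs. The pairs were described after the data were seen. Mrpl32 (-1.21) and Psma2 (-1.49), a proteasome subunit gene whose start lies 205 bases away, both fell, as did Mrpl18 (-0.73) and the chaperonin gene Tcp1 (-0.86). Mrps12 (1.28, on an _s_at probe set) and Sars2 (0.71), the mitochondrial seryl-tRNA synthetase gene, both rose. So did Mrpl2 (1.55) and the kinesin light chain gene Klc4 (0.84). The pair called in opposite directions was Mrpl51 (-0.35) with the condensin gene Ncapd2 (0.58). In the other tested pairs a single gene was called. Signs were the same for Mrpl14 (0.99) with Tmem63b (0.50, not called) and for Mrpl40 (0.07, not called) with Hira (0.93). They were opposite for Mrpl21 (-0.19, not called) with Ighmbp2 (1.02) and for Mrpl41 (-0.18, not called) with Pnpla7 (0.76). Signs were opposite too for Mrps11 (1.41) with Mrpl46 (-0.21, not called), which are both members and have starts 42 bases apart.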
